A study of Homo sapiens with 10 samples.

Results

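Wide clustered SALL4 regions are stretches of at least 5000 bp in which many small SALL4 peaks lie close together. They were taken from the deposited list of regions shared by 3 SALL4 libraries, by the rule that the end minus the start is 5000 bp or more. The rule kept 470 of 11201 shared regions, or 4.20%, and left 10731 narrower ones. Members were thus selected on measured width. The number of merged peaks and the peak heights come from the same calls, so all of these are given as a description and carry no test.

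SALL4 is a DNA-binding zinc finger protein that keeps embryonic stem cells undifferentiated, is switched off in most adult tissues and is expressed again in a subset of liver cancers. One cluster of its zinc fingers binds short AT-rich DNA, and its amino terminus recruits the NuRD complex, which removes acetyl groups from histones and is mostly known for repression. AT-rich sequence is unevenly spread along chromosomes, and many long genes of nervous system development lie in AT-rich, gene-poor domains.

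The study used SNU398, an established human hepatocellular carcinoma line grown in RPMI medium with serum. CUT&RUN, which tethers a nuclease to an antibody so that DNA next to the bound protein is cut out, was done with a SALL4 antibody in 3 libraries, with paired reads of 42 bp. The 3 libraries made with normal rabbit IgG were not analysed here, so no background of the assay enters any value. Total RNA was sequenced with paired reads of 75 bp from cells taken 72 h after transduction with 1 SALL4 hairpin or a scrambled one, with 2 libraries for each. All groups were unedited SNU398 cells, and no source says whether libraries of a group stand for separate cultures. The p-values then say only how far these libraries scatter, which may be technical variation.

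Sequences of 2 kinds show what these regions hold, both from RefSeq on GRCh38.p14, the same build as the hg38 of the peak files. Bases under the peaks themselves were not analysed here. The first set is the 250 bases before 5 transcription starts that lie in a wide region, printed in the direction of transcription. Capitals mark the word ATATT or its reverse complement AATAT, an AT-rich word of the kind SALL4 binds. DLX6-AS1 and H1-2 are shown for 2 words each, RARB and AKAP9 for 1 word each at genes that rose after knockdown, and EGR2 as a gene that rose and has none. ZSWIM2, BEGAIN and N4BP2, not printed, also rose, and their windows in wide regions hold no such word. The printed choice thus does not show how common the word is at genes that rose. The starts printed for RARB and AKAP9 lie inside the gene, away from its outermost start. In H1-2 the 2 words overlap and read as 1 run. A start in a wide region need not lie under a peak. Peaks were counted in the promoter windows defined below, which also hold bases after the start. The EGR2 window had no peak of any library, and the AKAP9 window had 1, of library 3. The RARB and H1-2 windows each had 2 peaks, all of library 2. The DLX6-AS1 window had 1 peak of library 1 and 1 of library 3. None of the 5 windows had peaks of all 3 libraries.
DLX6-AS1, chr7:97014066-97014315, minus strand: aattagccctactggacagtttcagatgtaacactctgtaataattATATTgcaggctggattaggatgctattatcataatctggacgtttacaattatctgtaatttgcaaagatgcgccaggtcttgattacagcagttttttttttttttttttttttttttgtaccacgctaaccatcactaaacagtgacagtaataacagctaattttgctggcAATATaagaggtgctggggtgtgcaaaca
H1-2, chr6:26056471-26056720, minus strand: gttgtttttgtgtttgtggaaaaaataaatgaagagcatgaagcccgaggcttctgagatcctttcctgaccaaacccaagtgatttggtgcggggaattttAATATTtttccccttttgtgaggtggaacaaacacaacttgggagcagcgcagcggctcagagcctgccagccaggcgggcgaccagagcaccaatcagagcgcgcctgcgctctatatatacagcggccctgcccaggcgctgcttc
RARB, chr3:25428013-25428262, plus strand: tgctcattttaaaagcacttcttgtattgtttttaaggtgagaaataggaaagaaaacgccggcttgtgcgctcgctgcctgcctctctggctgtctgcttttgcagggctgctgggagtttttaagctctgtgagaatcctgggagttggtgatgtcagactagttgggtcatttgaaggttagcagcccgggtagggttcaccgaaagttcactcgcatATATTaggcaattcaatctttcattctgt
AKAP9, chr7:92057328-92057577, plus strand: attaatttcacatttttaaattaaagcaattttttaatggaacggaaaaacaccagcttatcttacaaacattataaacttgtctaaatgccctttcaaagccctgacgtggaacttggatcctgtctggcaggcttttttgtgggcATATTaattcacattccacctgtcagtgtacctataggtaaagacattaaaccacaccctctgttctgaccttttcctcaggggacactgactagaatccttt
EGR2, chr10:62816367-62816616, minus strand: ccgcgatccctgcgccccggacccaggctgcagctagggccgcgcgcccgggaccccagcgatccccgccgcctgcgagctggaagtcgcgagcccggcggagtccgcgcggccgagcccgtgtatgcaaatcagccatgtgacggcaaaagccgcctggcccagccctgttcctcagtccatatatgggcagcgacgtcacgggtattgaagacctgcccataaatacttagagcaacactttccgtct

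Among RefSeq promoter windows of 300 bases (250 before and 50 after a start), 58 windows of 52 genes lay in 48 wide regions. The word was found in 22 of these 58 windows, or 37.9%, against 18.1% of 1049 windows in narrower shared regions and 23.0% of all 35116 windows. The windows in wide regions were also richer in A and T, with a median of 45.8% against 38.7% and 41.3%. Base composition and the word therefore move together, and their separate parts were not tested. A match says only that these letters occur in the window.

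The second set is the mature microRNAs encoded in wide regions, shown with the seed (bases 2 to 8) in capitals. Of the 13 mature sequences, 5 are given, from the miR-199a/214 cluster on chromosome 1 and the miR-99a/let-7c cluster on chromosome 21. Their 5 seeds differ from one another.
hsa-miR-199a-3p: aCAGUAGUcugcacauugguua
hsa-miR-199a-5p: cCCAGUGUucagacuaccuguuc
hsa-miR-214-3p: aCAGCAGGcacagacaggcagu
hsa-miR-99a-5p: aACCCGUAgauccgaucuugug
hsa-let-7c-5p: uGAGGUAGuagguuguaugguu
The miR-199a/214 hairpins lie within DNM3OS, a noncoding RNA antisense to the dynamin gene DNM3 and known as their precursor in mesenchymal cells. The wide region there, chr1:172135343-172148294, spans 12951 bp with 57 merged peaks and overlapped 19, 23 and 22 peaks of libraries 1, 2 and 3. The region holding miR-99a and let-7c, chr21:16535488-16542407, spans 6919 bp with 16 merged peaks. DNM3OS itself was measured at 41.0 and 19.1 CPM (a gene's counts scaled to the size of the library) in the scramble libraries and 49.5 and 15.6 CPM after knockdown. Its groups overlapped, and the log2 difference of 0.11 ± 0.91 (SE) was far smaller than the spread.

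The members ranged from 5005 to 31142 bp, with a median of 5993.5 bp against 2219 bp for narrower regions. Each held 7 to 127 merged peaks, with a median of 16 against 4. Together they covered 3.24 Mb, 11.3% of the width of all shared regions, and held 9378 of 63060 merged peaks (14.9%). Members of 5000 to 6000 bp (236 regions) had a median of 13 merged peaks, and the 35 members of 10000 bp or more had a median of 52. Peaks also lay closer together in the wider class, at a median of 4.22 against 2.74 per kb. The threshold falls in a continuous range. The 5 members just inside it were 5005 to 5018 bp wide, with 8 to 20 merged peaks. The 5 regions just outside were 4977 to 4999 bp wide, with 9 to 24 merged peaks, and 1 of them lies in PCLO, a gene that also holds 6 members.

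**Figure D1:**
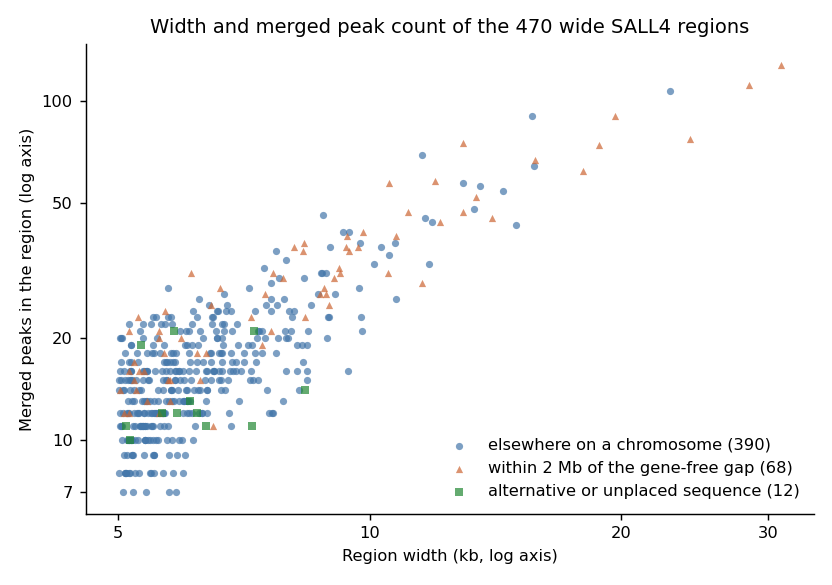
Width (kb, log axis) and merged peak count (log axis) of the 470 wide regions, with 1 point per region and symbols for their position. Most points lie between 5 and 10 kb, and 18 of the 35 regions of 10000 bp or more are within 2 Mb of the longest gene-free gap of their chromosome.

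A wide region is a chain of separate small peaks, not 1 broad peak. In all 470 members no pair of neighbouring peak centres was more than 1000 bp apart, and in 352 (74.9%) the outermost centres lay 500 bp from the ends, both within 1 bp. The deposited list therefore has the form of peaks merged by centre within 1000 bp. The narrower regions have the same form, with no wider gap in any of 10731. The number of overlapping peaks equalled the deposited merged count in 73 members (15.5%) and in 60.5% of narrower regions. The merging was thus inferred and not fully reproduced. Peaks of any library covered 29.6% of the members' width, and the rest of each region was called in no library. The median peak inside members was 123, 87 and 86 bp long in libraries 1, 2 and 3. The longest stretch of a member covered in all 3 libraries was 214 bp.

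Libraries 2 and 3 gave most of the peaks that build the members. Library 1 contributed 2389 of its 74708 peaks (3.20%), library 2 3931 of 398354 (0.987%) and library 3 4139 of 296159 (1.40%). Per region the median was 4, 7 and 8 overlapping peaks. Library 1 had a single peak in 83 members (17.7%), library 2 in 11 and library 3 in 2. At least 2 peaks of each library were found in 377 members (80.2%), against 12.7% of narrower regions. The list of shared regions already fixed at least 1 peak of each library, in narrower regions too. Selection on width favours many peaks, so the share with 2 or more of each library is only a description. The libraries contributed in unequal number.

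Few members would be wide from 1 library alone. When peak centres of a single library were chained by the same 1000 bp, 23, 55 and 50 members reached 5000 bp in libraries 1, 2 and 3. With library 1 left out 301 members (64.0%) still reached 5000 bp. With library 2 left out 180 did (38.3%), and with library 3 left out 159 (33.8%). Membership therefore rested on combining libraries for most regions. Peaks of libraries 2 and 3 together were enough for 301 of the 470 members, and leaving out either of these 2 libraries cost the most members.

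Peak height was read in steps, the smallest unit of signal in each library. Library 1 had a median height of 5 steps inside members against 4 outside shared regions, and in libraries 2 and 3 the medians were 3 in both places. Peaks of 5 steps or more made up 53.4%, 14.3% and 17.7% of the peaks inside members in libraries 1, 2 and 3. Outside shared regions they made up 31.1%, 3.22% and 4.13%. The highest peaks in members reached 35, 21 and 17 steps. Most peaks in these regions were therefore low, and 40 members (8.51%) held no peak above 4 steps.

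In 167 members, or 35.5%, peaks of all 3 libraries shared at least 1 base, against 9.23% of narrower regions. Wider regions offer more positions for this. Per kb of width, triple coverage was 5.72 bp in members and 2.12 bp in narrower regions. With peaks of at least 4 steps only, 66 members (14.0%) kept such a position. The longest triple-covered stretches were 214 bp in a member outside genes on chromosome 12 (chr12:84640637-84655086), 186 bp in PCLO and 178 bp in a member near a gene-free gap on chromosome 17 (chr17:22123156-22131504). At COL3A1 the longest was 142 bp.

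**Figure D2:**
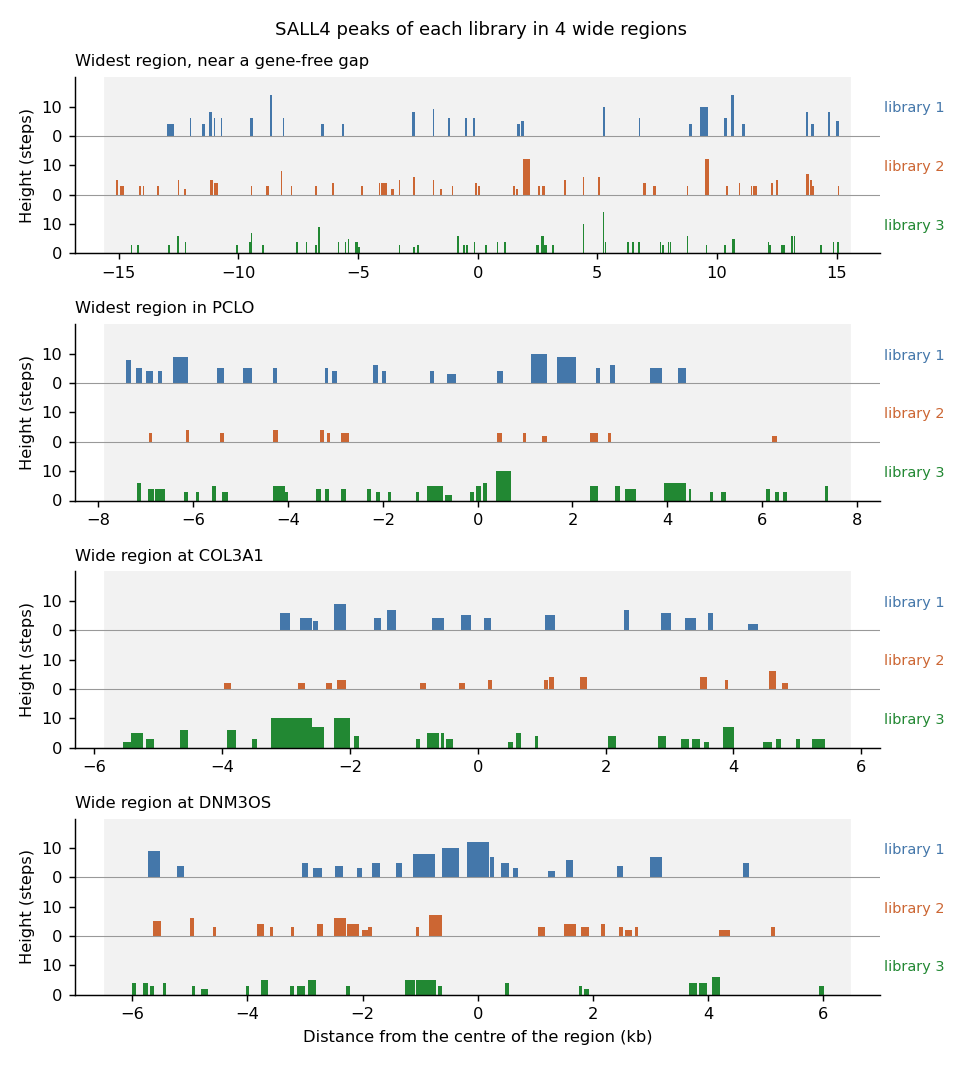
Peaks of each library in 4 wide regions, by distance from the region's centre (kb) and height in steps of that library, with the region's extent in grey. Each region is a series of short peaks separated by uncalled stretches, and the peaks of the 3 libraries mostly lie side by side.

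The largest members lay near the longest gene-free gap of their chromosome, a stretch that holds the centromere on most human chromosomes. Within 2 Mb of that gap lay 68 members (14.5%) against 4.60% of narrower regions. Of the 10 widest regions, 7 were there. The widest of all was chr10:38495904-38527046, 31142 bp with 127 merged peaks and 30, 49 and 54 peaks of libraries 1, 2 and 3. The next, chr10:42066063-42094548, spans 28485 bp with 111 merged peaks and 34, 41 and 40 peaks. Both lie on chromosome 10 and overlap no RefSeq gene. Members near a gap had a median of 27.5 merged peaks, against 16 elsewhere, and 64.7% of them had a triple-covered position, against 31.0% elsewhere.  The remaining members were 390 elsewhere on chromosomes and 12 on alternative or unplaced sequence.

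The other 3 of the 10 widest lay past the 2 Mb limit, though not all of them far past it. One, on chromosome 20 (chr20:31222986-31245863), has 107 merged peaks and no gene. The gene-free gap of that chromosome ends at position 28580633, so this member lies only slightly past the limit. One lies in the immunoglobulin kappa locus (chr2:89771968-89787623), with 90 merged peaks and 31, 33 and 33 peaks of the 3 libraries. It too is only slightly past the limit, as the gap of chromosome 2 starts at position 92035127. The third, chr7:82809327-82825055, spans 15728 bp within PCLO, which encodes a scaffold protein of the presynaptic active zone. It has 64 merged peaks and 21, 13 and 33 peaks of libraries 1, 2 and 3.

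With respect to protein-coding gene bodies, members were placed much like narrower regions. The midpoint fell in a protein-coding gene in 225 of 470 members (47.9%, exact binomial 95% interval 43.3 to 52.5%), against 45.4% of narrower regions. For any RefSeq gene the shares were 61.9% and 61.1%. Leaving out members near a gap raised the first share to 55.7%. An end of a protein-coding gene was reached by 51 members, 10.9% (8.19 to 14.0%), against 7.51% of narrower regions, which span fewer bases. The intervals cover counting error only and are narrower than they should be, since neighbouring regions are not independent. Of 251 pairs of a protein-coding gene and a wide region, 193 lay inside the gene. In 29 the region held a start of known strand, and in 29 it reached an end not assigned as a start. For some genes, such as COL3A1, CSMD3 and FAP, no strand was available. The last count can therefore include starts, and the count of starts can be too low. Exons and introns were not resolved.

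Members were unevenly spread over the chromosomes. Chromosome 7 held 72, chromosome 2 held 65, chromosome 1 held 52 and chromosome 14 held 46. Per Mb, chromosome 7 had 0.452 and chromosome 14 had 0.430 members, while chromosome 3 had 0.0303. None was found on chromosomes 18, 19 or X, which held 56, 59 and 16 shared regions of any width. Libraries 1, 2 and 3 had 32.8, 109 and 127 peaks per Mb on chromosome 7, 46.3, 194 and 161 on chromosome 14, and 14.1, 132 and 72.1 on chromosome 3. Chromosome 7 thus held more members per Mb than chromosome 14 with fewer peaks per Mb in each library. This order rests on members near the gene-free gap, which were 17 of the 72 on chromosome 7 and 0 of the 46 on chromosome 14. Away from the gap chromosome 7 held 55 members over 159 Mb, and chromosome 14 held 46 over 107 Mb. The 46 include a run of 8 members, chr14:19242785-19882510, that lies past the 2 Mb limit. The gap of chromosome 14 ends at position 16024658, so a wider limit would count these 8 as near it. The part of call density in the number of members was not tested, and the numbers were not corrected for copy number, which was not measured here.

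**Figure D3:**
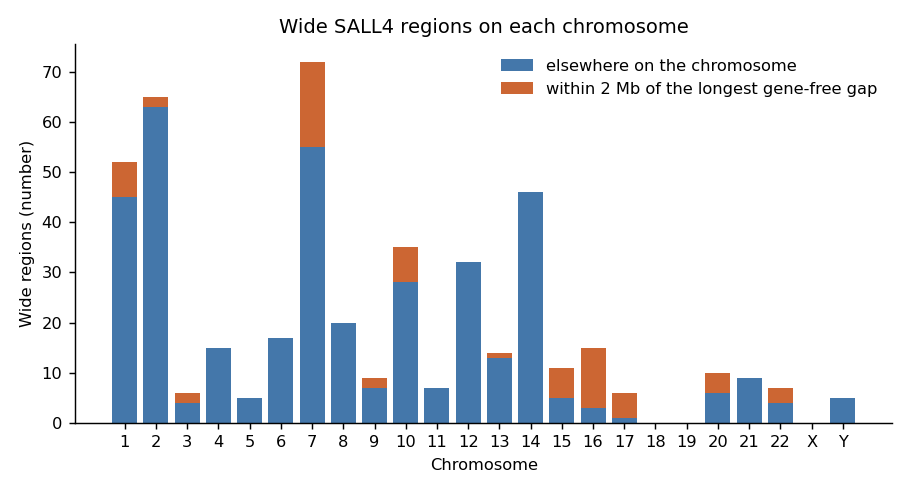
Number of wide regions on each chromosome, split by position within 2 Mb of the longest gene-free gap or elsewhere. Chromosomes 7, 2, 1 and 14 hold the most, most of those on chromosome 16 are near the gap (12 of 15), and chromosomes 18, 19 and X hold none.

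Wide regions also lay close to each other. Joining members no more than 1 Mb apart gave 174 runs, of which 85 were single regions, and 23 runs of 5 or more members held 205 of them. The longest run, chr7:81953211-85893663, held 28 members in 3.94 Mb over CACNA2D1, PCLO, SEMA3A, SEMA3D and SEMA3E. There libraries 1, 2 and 3 had 188.8, 325 and 571 peaks per Mb, against 32.8, 109 and 127 over chromosome 7. A second run of 16 members on the same chromosome, chr7:78363720-80890859, covered MAGI2, CD36, GNAT3 and SEMA3C. A run of 21 members on chromosome 1 (chr1:101902158-104123665) covered OLFM3, COL11A1 and salivary amylase genes. A run of 16 on chromosome 2 (chr2:186629652-189207752) covered ITGAV, ZSWIM2, CALCRL, TFPI, GULP1, COL3A1 and COL5A2. A run is made of wide regions and so of many peaks, which fixes a high density of calls in it.

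Collagens and semaphorins were among the genes under the members, and both families were chosen after that list was seen. Of 44 collagen genes 6 overlapped members, with 22 wide regions between them: COL11A1, COL12A1, COL1A2, COL21A1, COL3A1 and COL5A2. COL11A1, a minor fibrillar collagen of cartilage, held 10 wide regions, the most of any gene, with 198 merged peaks. COL5A2, which joins type V collagen and regulates fibril diameter, held 7 with 124 merged peaks. Of the 7 class 3 semaphorins, secreted cues that steer axons and vessels, 4 overlapped members, with 16 wide regions. SEMA3A alone held 9 with 179 merged peaks. Of all 20050 protein-coding genes, 162 (0.808%) overlapped a member, but those genes were long, with a median span of 144.9 kb against 24.1 kb for all. A longer gene can hold more regions, and the shares of gene families were not corrected for that. Other groups had shares as high, such as 2 of the 4 AMPA glutamate receptor genes.

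The fixed lists of genes linked to SALL4 or to liver are short, and 0.808% of all protein-coding genes overlapped a wide region. None or 1 in 15 to 20 genes cannot be told from that share. None of 15 NuRD subunits overlapped a wide region, although 1 overlapped a narrower one. None of 16 hepatocyte factors did. Of 20 histone demethylases JMJD1C did, and of 16 oncofetal liver genes HMGA2, an architectural protein that itself binds AT-rich DNA. Of 30 neuronal adhesion and synapse genes 5 overlapped a wide region, among them CSMD3, CTNNA3 and MAGI2. Of those 30, 23 overlapped a shared region of some width. SALL4 itself held no wide region.

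In all, 282 RefSeq genes overlapped a member, of which 162 were protein-coding and 68 long noncoding. An RNA row was found for 215 by symbol, and 186 passed the filter on low counts. Expression of the protein-coding ones was common: 151 of 162 (93.2%) passed that filter, against 87.9% of genes with narrower regions only and 75.6% of all protein-coding genes.

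RNA libraries held 158934493 to 225624957 gene counts each. SALL4 was measured at 74.5 and 58.7 CPM in the scramble libraries and 21.6 and 18.7 CPM after knockdown, and fell by 1.72 ± 0.19 (SE) on the log2 scale, with an adjusted p of 5.84e-06 in edgeR. AFP, ALB, APOA1, KRT8 and KRT18, listed as markers of liver cancer cells, were below 1 CPM in every library. AFP was at 4 to 10 counts, ALB at 66 to 145, APOA1 at 41 to 92, KRT8 at 23 to 42 and KRT18 at 5 to 14. GPC3 was present at 14.7 to 20.02 CPM. All 5 fibroblast markers were detected: LUM at 96.0 to 234 CPM, DCN at 11.5 to 21.7, COL1A1 at 3.06 to 8.12, COL1A2 at 1.84 to 2.73 and PDGFRB at 0.181 to 0.680 CPM. LUM and DCN were highest in scramble replicate 1, while COL1A1 and PDGFRB were highest in scramble replicate 2. All 3 markers of kidney packaging cells were detected as well, with HOXC10 at 25.02 to 48.1, LHX1 at 8.73 to 10.6 and PAX2 at 2.497 to 2.70 CPM. The part of these genes in the results was not tested. Leukocyte and endothelial markers such as CD3E and CDH5 had 0 to 5 counts. In bulk RNA fewer cells of a type and less RNA per cell cannot be told apart.

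After knockdown, genes overlapping a wide region more often rose than fell, by modest amounts. Of 186 tested genes 18 were higher at an adjusted p under 0.05 (9.68%; 2.31% of all 25807 genes tested) and 5 were lower (2.69%; 3.25% of all). The median log2 fold change was 0.19 against 0.00 over all genes, and 131 of the 186 (70.4%) were above 0 against 50.2% of all. Genes with narrower regions only had 108 higher (4.18%) and 97 lower (3.75%) of 2584, with a median of 0.08. This readout is independent of the rule, which used no RNA. Either way 23 were called (12.4%; 5.55% of all), and 53 had an unadjusted p under 0.05 (28.5%; 18.1% of all). Among the 151 tested protein-coding genes 16 were higher (10.6%) and 5 lower (3.31%). Of all 15159 tested protein-coding genes 2.72% were higher, 5.15% lower and 7.86% called either way. Genes are not replicates, so the counts are given as a description without a test of the group.

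Gene length moved with this result. Of protein-coding genes of 100 kb or more, 4.28% were higher and 3.44% lower, while of shorter ones 2.34% were higher and 5.56% lower. Of the 97 tested long genes with a wide region 11 were higher (11.3%) and 1 lower. Of the 54 shorter ones 5 were higher (9.26%) and 4 lower. With all 4 libraries the share called higher was above that of all genes of the same length class in both classes. Genes within a class still differ in length, and the part of length in this result was not tested. The 39 tested genes with 2 or more wide regions had 8 higher and none lower, both by edgeR and by DESeq2, with 3 lower at an unadjusted p under 0.05 in edgeR. Of all genes tested 2.31% were higher and 3.25% lower in edgeR, and 4.31% and 6.12% in DESeq2.

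Single libraries carried much of the count. With 1 library left out the number higher was 7 without knockdown replicate 1, 9 without knockdown replicate 2, 9 without scramble replicate 1 and 3 without scramble replicate 2. In the last case the share was 1.60% against 1.12% of all genes, near the background. In the other 3 it was 3.70%, 4.76% and 4.76% against 1.47%, 1.22% and 1.48%. The number lower, in the same order, was 6, 2, 3 and 5, against a share of 1.79%, 2.2%, 2.85% and 1.82% of all genes. The median log2 fold change stayed above 0, at 0.12 to 0.29, and all 23 called genes kept their sign in each of these fits. A filter of 5 CPM left 9 of the 23 called and 6 untested, and counts of the combined matrix left 10 called and 1 untested.

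**Figure D4:**
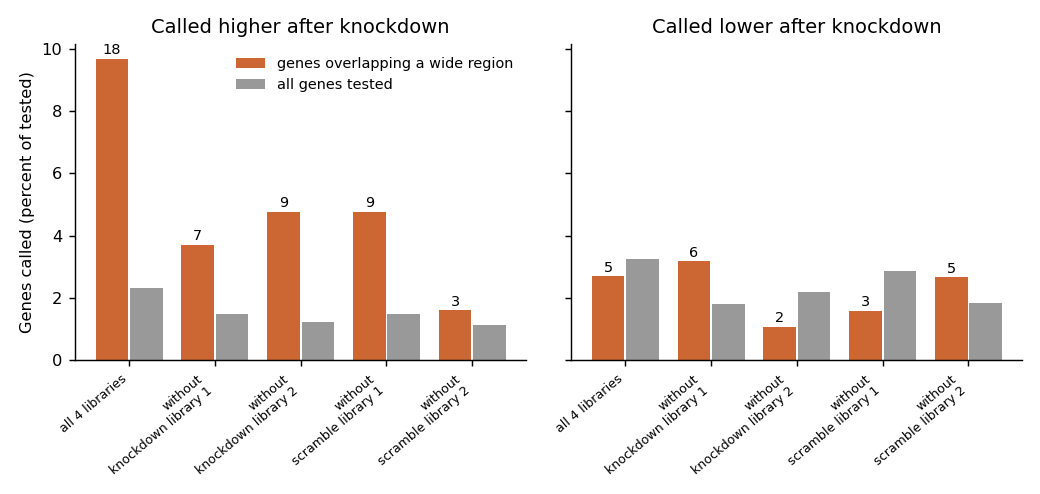
Percent of tested genes called higher (left) or lower (right) after knockdown, for genes overlapping a wide region and for all genes tested, with all 4 RNA libraries and with each left out, and the number of called genes above the first bar. The share called higher falls from 9.68% to 1.60% without scramble library 2.

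METAP1D and ITGAV were the genes whose change passed the test whichever RNA library was left out. The other called genes each lost their call in at least 1 of those 4 fits. The genes are grouped below by known function, a grouping made after the calls were seen. METAP1D, a mitochondrial methionine aminopeptidase, was measured at 18.3 and 16.4 CPM in the scramble libraries and 37.5 and 37.4 CPM after knockdown. Both knockdown libraries stood above both controls, and the gene rose by 1.11 ± 0.19 (SE) on the log2 scale, with an adjusted p of 7.47e-04 in edgeR. It holds 2 wide regions in its 3′ part, 48.6 and 72.7 kb from the start, and in the second library 1 reached 30 steps where libraries 2 and 3 reached 7 and 9. ITGAV, the alpha V integrin chain that binds fibronectin and vitronectin, was at 768 and 538 CPM in the scramble libraries and 306 and 266 CPM after knockdown. It fell by 1.19 ± 0.20 (SE) on the log2 scale, with an adjusted p of 7.63e-04 in edgeR. Its wide region, chr2:186629652-186636626, lies inside the gene 43.1 kb from the start, with 13 merged peaks and 4, 4 and 6 peaks of the 3 libraries. The authors' deposited table gives log2 fold changes of 1.09 for METAP1D and -1.01 for ITGAV, and the libraries behind that table may differ from the 4 used here.

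Among the genes that rose were 3 transcription factors. EGR2, an immediate early zinc finger factor of hindbrain and Schwann cells, was at 1.25 and 0.943 CPM in the scramble libraries and 2.61 and 3.19 CPM after knockdown. It rose by 1.40 ± 0.29 (SE) on the log2 scale, with an adjusted p of 0.00405 in edgeR. Its wide region reaches the 3′ end of the gene, which spans 7.17 kb, and holds the alternative start whose promoter is printed above. MEIS1, a homeodomain cofactor of HOX proteins, was at 37.5 and 41.1 CPM and then 66.8 and 70.8 CPM (log2 fold change 0.81; edgeR adjusted p = 0.00748). Its region spans 9411 bp over the 3′ end. RARB, a retinoic acid receptor, was at 107 and 99.3 CPM and then 154 and 178 CPM (0.69; edgeR adjusted p = 0.0222). In all 3 genes the groups did not overlap. With 2 libraries in each group this arises easily, and its share over all genes was not counted, here or for the genes below. EGR2 lost its call without scramble replicate 2 (adjusted p = 0.0518) and MEIS1 without scramble replicate 1 (0.0865). RARB kept its call only without knockdown replicate 1 among these 4 fits.

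Another 5 of the genes that rose are known from neurons or sensory cells. CACNA2D1, an auxiliary subunit of voltage-gated calcium channels, holds 5 wide regions and was at 22.1 and 16.1 CPM in the scramble libraries and 36.2 and 26.8 CPM after knockdown (log2 fold change 0.72). GPM6A, a membrane glycoprotein of growing neurites, was at 168 and 113 CPM and then 271 and 200 CPM (0.75). OLFM3, a secreted olfactomedin, was at 154 and 130 CPM and then 238 and 205 CPM (0.64). PCDH15, a protocadherin of hair cell tip links, was at 10.6 and 12.8 CPM and then 19.3 and 18.4 CPM (0.69). BEGAIN, a postsynaptic protein, was at 15.5 and 17.03 CPM and then 23.0 and 31.9 CPM (0.75), and its wide region holds the gene's start. The groups did not overlap in any of the 5, though the gap was small for some, and adjusted p-values from edgeR lay between 0.0272 and 0.0456. CACNA2D1 and GPM6A lost their calls without knockdown replicate 1 (adjusted p = 0.365 and 0.257) and without scramble replicate 2 (0.354 and 0.351). OLFM3 kept its call only without knockdown replicate 2 (0.0478), BEGAIN only without knockdown replicate 1 (0.0162), and PCDH15 in none of the 4 fits.

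Of the 26 tested genes on the list of neuronal adhesion and synapse genes, 3 were higher and 1 lower (2.31% and 3.25% of all genes tested), but none of the 5 with a wide region was called by edgeR or DESeq2, and none had an unadjusted p under 0.05 in edgeR. CSMD3 was at 36.0 and 46.7 CPM and then 52.7 and 53.3 CPM (edgeR adjusted p = 0.322). MAGI2, a synaptic and junctional scaffold, was at 8.68 and 10.7 CPM and then 12.8 and 11.3 CPM (adjusted p = 0.483). CTNNA3, a cell adhesion catenin, was below 1 CPM in every library.

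**Figure D5:**
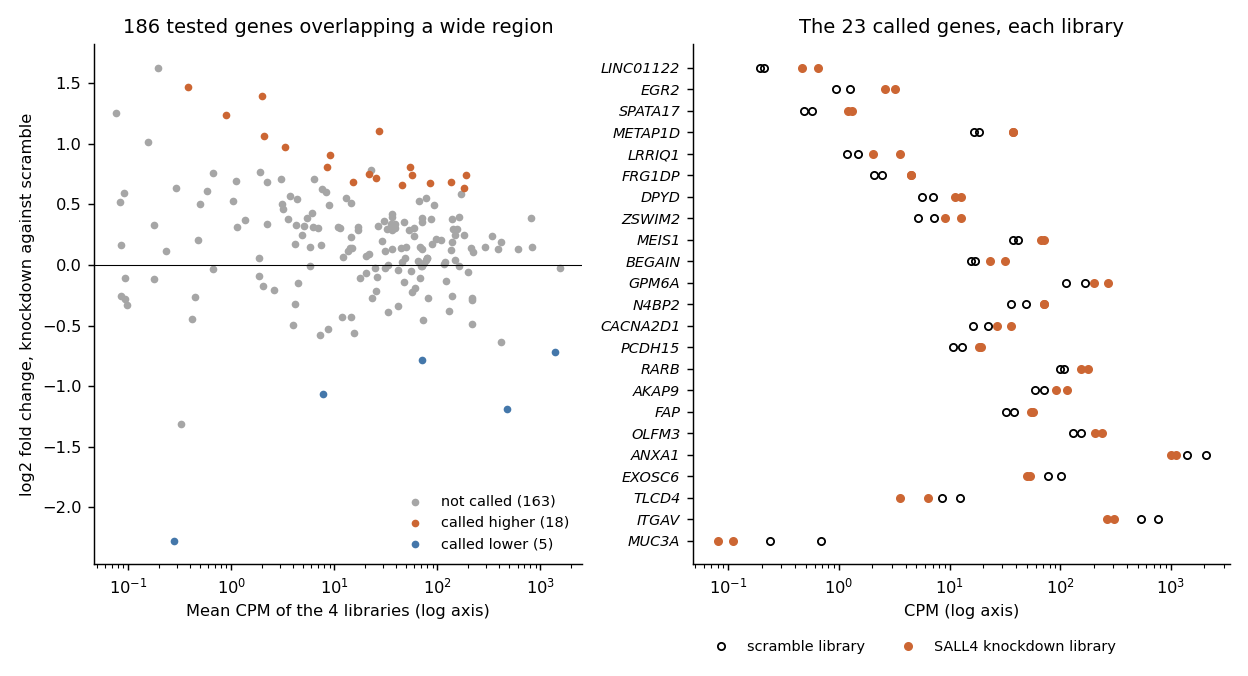
Left, log2 fold change after SALL4 knockdown against the mean CPM of the 4 libraries (log axis) for the 186 tested genes overlapping a wide region. Right, CPM (log axis) in each scramble and knockdown library for the 23 called genes. More of the called points lie above 0 (18) than below (5), and each gene's 2 knockdown libraries lie on 1 side of both scramble libraries.

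Other genes that rose were mixed in function. DPYD, the first enzyme of pyrimidine breakdown, was at 5.56 and 7.09 CPM and then 11.2 and 12.5 CPM (log2 fold change 0.91; edgeR adjusted p = 0.0144). AKAP9, an anchor for protein kinase A at centrosome and Golgi, was at 70.5 and 59.3 CPM and then 91.9 and 115 CPM (0.68). FAP, a fibroblast surface protease, was at 38.2 and 32.2 CPM and then 56.7 and 54.6 CPM (0.66). N4BP2, ZSWIM2, LRRIQ1 and SPATA17 rose by 0.74, 0.81, 1.06 and 1.24 on the log2 scale, the last from a mean of 0.527 CPM. LINC01122, a noncoding RNA at 0.194 to 0.647 CPM, had the highest log2 fold change of the called genes at 1.47. FRG1DP (0.98) is a pseudogene with close copies, so its counts are uncertain. FAP, SPATA17 and FRG1DP lost their calls in each of the 4 fits that left out 1 RNA library. AKAP9 kept its call only without knockdown replicate 1 (adjusted p = 0.0219), N4BP2 only without scramble replicate 1 (0.0111) and LINC01122 only without knockdown replicate 2 (0.0332). DPYD lost its call without knockdown replicate 2 and scramble replicate 1 (0.100 and 0.174). ZSWIM2 and LRRIQ1 lost theirs without knockdown replicate 1 (0.374 and 0.424) and without scramble replicate 2 (0.336 and 0.219).

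The other genes that fell included an abundant one. ANXA1, a calcium-dependent membrane protein of inflammation control, was at 2075 and 1391 CPM in the scramble libraries and 1109 and 993 CPM after knockdown (log2 fold change -0.72; edgeR adjusted p = 0.0473). EXOSC6, a subunit of the RNA exosome, was at 101 and 77.8 CPM and then 53.3 and 50.2 CPM (-0.79). TLCD4, which shares sequence with a read-through gene, was at 12.4 and 8.52 CPM and then 6.41 and 3.59 CPM (-1.07). MUC3A, a membrane mucin of a repetitive family, was at 0.239 and 0.692 CPM and then 0.0796 and 0.110 CPM (-2.28), with 15 merged peaks in its region. Its call was lost without scramble replicate 2 (adjusted p = 0.420). ANXA1 kept its call only without scramble replicate 2 (0.00811). EXOSC6 and TLCD4 lost theirs without knockdown replicate 2 (0.0617 and 0.202) and without scramble replicate 1 (0.195 and 0.145).

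Genes with most wide regions were measured as follows. COL11A1 was at 563 and 592 CPM in the scramble libraries and 690 and 579 CPM after knockdown (log2 difference 0.14 ± 0.19, SE; edgeR adjusted p = 0.801). SEMA3A was at 139 and 90.5 CPM and then 126 and 105 CPM (0.01 ± 0.20; adjusted p = 0.990). COL5A2 was at 287 and 262 CPM and then 342 and 266 CPM (0.15 ± 0.19). PCLO, with 6 wide regions, was at 98.7 and 68.2 CPM and then 64.8 and 57.0 CPM (-0.45 ± 0.19; adjusted p = 0.200). TRPS1, a GATA-type repressor of cartilage and hair development with 7 wide regions, had a log2 difference of 0.19 ± 0.19. NOVA1, a neuronal splicing factor, and DACH1, a developmental corepressor, each with 5, had 0.39 ± 0.24 and -0.22 ± 0.23. Of the 10 genes with 5 or more wide regions CACNA2D1 was the 1 called, against 5.55% of all genes tested, and so few genes cannot be told from that share.

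None of the 6 collagens with a wide region was called by edgeR or DESeq2, and none had an unadjusted p under 0.05 in edgeR, with log2 differences of 0.01 to 0.34. None of the 4 semaphorins was called by either tool and 1, SEMA3D, had an unadjusted p under 0.05, with log2 differences of -0.49 to 0.57. COL3A1, a fibrillar collagen of vessels and skin with 2 wide regions, was at 768 and 794 CPM and then 887 and 841 CPM (0.15 ± 0.19, SE). VIM, the mesenchymal intermediate filament with 1 wide region, was at 1776 and 1367 CPM and then 1601 and 1496 CPM (-0.02 ± 0.20).

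The region at the DLX5 and DLX6 pair, homeobox genes of limb, jaw and forebrain, was one of the widest in genes. It spans 14965 bp (chr7:97010947-97025912) with 43 merged peaks and 12, 13 and 24 peaks of libraries 1, 2 and 3, and it holds the DLX6-AS1 promoter printed above. DLX5 was at 128 and 113 CPM and then 154 and 159 CPM, DLX6 at 76.2 and 77.5 CPM and then 102 and 114 CPM, and DLX6-AS1 at 53.2 and 55.1 CPM and then 82.3 and 73.6 CPM. The groups did not overlap in any of the 3, with log2 differences of 0.38, 0.49 and 0.53. None passed the test across all genes (edgeR adjusted p = 0.256, 0.108 and 0.0869). With 2 libraries in each group, groups that do not overlap arise easily, and their share over all genes was not counted. As the strand setting of the counts is unknown, reads of DLX6 and DLX6-AS1, which overlap, cannot be told apart. These 3 genes and DNM3OS were chosen after their regions were seen.

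Of the fixed lists, JMJD1C, a histone demethylase family member with a wide region inside the gene, 55.5 kb from its start, was at 152 and 131 CPM and then 177 and 196 CPM (0.40 ± 0.18, SE; edgeR adjusted p = 0.233). HMGA2, with 2 wide regions, was at 167 and 124 CPM and then 170 and 130 CPM (0.04 ± 0.19). H1-2, a linker histone whose promoter is printed above, was at 671 and 740 CPM and then 694 and 1147 CPM, with overlapping groups.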

How the data were processed

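The submitters' processing notes name BWA 0.7.17-r1188, SEACR 1.1, HOMER 4.10, STAR, Trim Galore 0.4.5, DESeq2 and featureCounts with build hg38. Their settings, the annotation release and the strand of counting are not stated there. The deposited peak files hold each peak's total and highest signal, which are whole multiples of 2.88, 2.64 and 3.30 in libraries 1, 2 and 3; heights were divided by these steps. The deposited common list gives start and end (kept as given). The deposited RNA files are raw counts by gene symbol. The authors' deposited table of their own comparison has log2 fold changes and p-values, beside a log odds score.

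Members and gene lists were chosen with earlier results of these data known. Peaks overlapped a region by at least 1 bp. Gene spans, promoters and microRNAs came from RefSeq GRCh38.p14; of 56303 RNA rows 35233 matched by symbol or synonym. edgeR 4.0.16 (filterByExpr, TMM, robust quasi-likelihood test with only the group in the model) was run on the counts after a test on simulated data, adjusted by Benjamini-Hochberg and called at 0.05. CPM are TMM-scaled except for marker genes, which use total counts. The SE is the log2 fold change divided by the square root of F. Alternatives used DESeq2 1.42.0 and other filters, scalings, thresholds and left-out libraries. Intervals are exact binomial (scipy 1.17.1). At this depth the precision is set by how libraries differ, more than by counting error.

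Named regions are the 10 widest, the 5 with most merged peaks, the 5 on each side of the threshold, and up to 10 each by longest triple coverage and by merged peaks at a promoter. Named genes are up to 10 each called higher or lower with the largest change at 1 CPM or more and groups not overlapping, protein-coding genes at the 10 widest regions, the 10 with most wide regions, the 5 protein-coding ones with the highest CPM in scramble, list members and SALL4. Other genes were named after their values were seen, and some list members are not reported here.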

Additional observations from a re-analysis of the deposited data

How the results depend on the processing

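A minimum width of 4000, 7500 or 10000 bp gave 1090, 108 and 35 regions. The share with the midpoint in a protein-coding gene was 34.3% at 7500 bp, 61.9% for any RefSeq gene and 55.7% without regions near a gene-free gap, an alternative chosen after seeing the data. The share with a triple-covered position was 24.7% at 4000 bp, 63.9% at 7500 bp, 14.0% with peaks of at least 4 steps and 30.6% without regions near a gap. The median of overlapping peaks per region, 18, became 33.5 at 7500 bp and 8 with peaks of at least 4 steps, and 11 to 14 with 1 CUT&RUN library left out.

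Genes called higher and lower, 18 and 5, became 8 and 2 under a 5 CPM filter, 8 and 3 from the combined matrix, 37 and 10 at 4000 bp, and 5 and 0 at 7500 bp (edgeR and DESeq2; 4 lower at an unadjusted p under 0.05). Leaving out 1 RNA library gave 3 to 9 higher and 2 to 6 lower. Among regions that still reached 5000 bp with CUT&RUN library 1, 2 or 3 left out (chosen after seeing the data) the numbers were 13 and 3, 6 and 1, and 6 and 0; of the last, 2 were lower at an unadjusted p under 0.05, and DESeq2 called none lower. DESeq2 gave 24 and 5, RLE scaling 18 and 5, and no filter 22 and 6. Of all genes DESeq2 called 4.31% higher and 6.12% lower, against 12.9% and 2.69% of genes with a wide region. RLE scaling called 2.47% and 3.55% of all genes, and no filter 2.08% and 2.52%. The 5 CPM filter called 2.61% and 3.88% of all, and the combined matrix 2.21% and 3.04%. Other widths and left-out CUT&RUN libraries used the main fit, with 2.31% and 3.25% of all. With the replicate block the counts were 44 higher (23.7%; 8.95% of all genes) and 17 lower (9.14%; 10.1% of all), with a median of 0.19; the libraries share only a number, and deviations of same-numbered libraries correlated at r = 0.236 over 25807 genes. The median log2 fold change was above 0 under every alternative run, from 0.12 to 0.29.

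Some genes that were not called changed sign, and the cause was not tested. With 1 RNA library left out in turn the log2 difference of COL5A2 ranged from -0.043 (without knockdown replicate 1) to 0.31, CTNNA3 from -0.53 to 1.25 and DACH1 from -0.55 to 0.23. H1-2 ranged from -0.032 to 0.70, HMGA2 from -0.16 to 0.27, SEMA3A from -0.25 to 0.35, TRPS1 from -0.0078 to 0.43 and VIM from -0.19 to 0.18. In the combined matrix SEMA3A was at -0.0051 and VIM at 0.040, and under the 5 CPM filter VIM was at 0.00020. IgG signal was not analysed here, and low peaks limit what the regions' heights can show.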
